A study of Homo sapiens with 8 samples.

Results

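The genes described here are those of the cell-cycle machinery that carries a cell from G1 into S phase. They are the D-type cyclins *CCND1*, *CCND2* and *CCND3*, the E-type cyclins *CCNE1* and *CCNE2*, cyclin A2 (*CCNA2*), the cyclin-dependent kinases *CDK2*, *CDK4* and *CDK6*, and the phosphatase *CDC25A*. They were chosen by name, 10 of the 58051 genes in each count file, by a rule that uses no measured value. RNA was sequenced from 4 lines of the human melanoma cell line A375, labelled WT1 to WT4, each in 2 culture conditions. Cells that had been grown with 10% fetal bovine serum (FBS) were rinsed and kept for 12 h in DMEM either with 10% FBS (serum) or with none (serum-free), which gives 4 libraries per condition. All lines are wild type in the labels and each descends from a single A375 cell, so the 4 replicates are clones of 1 tumour line and none is a repeat culture of a clone. The experiment addressed how the transcriptome of melanoma cells responds to serum withdrawal, and the comparison below asks what happens in it to the G1/S genes.

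In the textbook account of this pathway, mitogens such as those in serum induce D-type cyclins, which bind and activate CDK4 and CDK6. These kinases phosphorylate the retinoblastoma protein (RB1) and its relatives, which releases E2F factors to transcribe E-type cyclins, *CCNA2*, *CDC25A* and other S-phase genes. Cyclin E and then cyclin A activate CDK2, from which CDC25A removes inhibitory phosphates, and inhibitors of the INK4 and CIP/KIP families oppose these kinases. Melanomas commonly carry lesions in this pathway, among them loss of the INK4 gene *CDKN2A* and gain of *CCND1*.

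Promoters are shown for 3 of these genes, *CDC25A* and *CCNA2* because they hold an E2F word or a CRE core and fell without serum, and *CCNE1* because it had the smallest difference of the set. They were picked for this contrast, which the other genes do not share: *CCND3* and *CDK4* also fell and hold neither of the words in capitals, and *CDK6* holds one and did not pass without the line as block. Each line gives the 250 bases before the RefSeq start of transcription (GRCh38.p14), 5′ to 3′ on the strand of the gene. Capitals mark a match to an E2F word or to the core of a cyclic AMP response element (CRE).
*CDC25A*, chr3:48188418-48188667, minus strand: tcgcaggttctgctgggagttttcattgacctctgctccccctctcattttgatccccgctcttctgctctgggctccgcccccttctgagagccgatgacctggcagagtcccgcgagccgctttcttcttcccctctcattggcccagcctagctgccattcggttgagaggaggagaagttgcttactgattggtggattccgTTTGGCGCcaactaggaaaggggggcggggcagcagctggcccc
*CCNA2*, chr4:121823884-121824133, minus strand: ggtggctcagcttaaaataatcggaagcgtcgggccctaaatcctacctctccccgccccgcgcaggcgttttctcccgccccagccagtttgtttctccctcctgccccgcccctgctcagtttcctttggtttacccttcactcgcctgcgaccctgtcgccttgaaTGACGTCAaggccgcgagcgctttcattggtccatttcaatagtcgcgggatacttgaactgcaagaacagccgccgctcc
*CCNE1*, chr19:29811741-29811990, plus strand: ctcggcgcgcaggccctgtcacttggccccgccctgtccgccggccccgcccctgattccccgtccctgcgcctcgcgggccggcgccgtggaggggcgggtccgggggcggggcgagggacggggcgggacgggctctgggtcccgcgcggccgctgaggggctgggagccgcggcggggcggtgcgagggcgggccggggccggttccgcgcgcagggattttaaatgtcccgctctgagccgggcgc

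The words were searched on both strands of windows of 300 bases, from 250 before to 50 after each start. The promoter table held 9 such windows for 6 of the 10 genes, namely *CDC25A*, *CCNA2*, *CCND3*, *CDK6*, *CDK4* and *CCNE1*, while *CCND1*, *CCND2*, *CCNE2* and *CDK2* had no entry. The E2F words were TTTCGCGC, TTTGGCGC, TTTCCCGC and TTTGCCGC, and only *CDC25A* matched, with TTTGGCGC beginning 44 bases before the start. An E2F word was present in 3.31% of all 35116 windows. The CRE core ACGTCA matched *CCNA2* on both strands, at 81 and 79 bases before the start, in overlapping matches that together form one palindrome. It also matched 1 of the 2 windows of *CDK6*, against 7.98% of all windows. The bases after the start of that window, and of 1 of the 3 windows of *CCND3*, were found in no GENCODE transcript of the gene, so these 2 starts rest on RefSeq alone. For the cell-cycle homology region only the exact word TTTGAA was searched. It was in none of the 9 windows and in 15.2% of all windows. Variant words of this element were not searched, so its absence from these promoters is not shown. The SP1 box GGGCGG was in at least 1 window of each of the 6 genes, in 7 of their 9 windows (those same 2 had none), and in 45.0% of all windows. These matches describe letters in a fixed window and not bound sites.

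The libraries held 29759279 to 67101005 counts on genes with serum and 37847737 to 73341551 without serum. Reads aligned to several places, which were not counted, were 22.7% of the total in WT1 and 16.8% in WT2 with serum, and 5.73% to 10.1% in the other libraries. The deposited counts of WT4 carry a clone name in place of WT4, so its identity rests on the labels, and *NECTIN1*, the gene that the study inactivated in other A375 lines, was at 67.4 and 44.9 CPM (counts scaled to library size) in WT4 and between 45.0 and 59.5 CPM in the other libraries. Counts of the G1/S genes, and of the gene lists, are therefore also given without these libraries. Of the melanocyte and melanoma markers, 7 of 10 had enough counts to be tested, with *SOX10* at 0 and *TYR* under 10 counts in every library. Ambiguous reads were not counted, and whether *SOX10* RNA is absent from these cells was not tested. Of these 7, 1 passed the test described below, *MITF*, the melanocyte lineage factor (log2 fold change -0.28, edgeR, adjusted p = 0.0496), and the others ranged from -0.98 to 0.30. With the line as block 3 were lower, *MITF*, *AXL* (-0.35, adjusted p = 5.88e-04) and *DCT* (-0.89, 0.0251), and *S100B* was higher (0.0469). The summed level of these markers was 579 to 884 CPM with serum and 394 to 831 CPM without. *AXL*, a receptor high in dedifferentiated melanoma, made up most of it, at 590 ± 83.0 CPM with serum (SD, n = 4). Markers of keratinocytes, fibroblasts, leukocytes and endothelium summed to at most 28.5 CPM, and *PTPRC* and *CD3E* of leukocytes stayed under 10 counts. With the line as block, *DCN* of fibroblasts was higher (0.90, edgeR, adjusted p = 0.0125), from a mean of 1.04 CPM with serum to 1.94 CPM without. *LUM*, also of fibroblasts, did not pass with the block (-0.31, adjusted p = 0.104).

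Without serum, RNA of the G1/S genes was lower. Of the 9 genes with enough counts to be tested, 9 had a lower fitted level, 8 were lower in all 4 lines and 6 fell significantly: *CDK2*, *CCNE2*, *CDC25A*, *CCNA2*, *CCND3* and *CDK4*. None rose. Levels here are CPM scaled by edgeR's TMM factors, and genes were tested with the quasi-likelihood test of edgeR, with p-values adjusted by Benjamini-Hochberg over all 17671 tested genes and a threshold of 0.05. Of these, 14.0% were lower by this test and 11.1% higher, 26.6% were lower in all 4 lines, and 46.6% had a lower fitted level. The serum-free values lay wholly below the serum values in those same 6 genes, as in 15.0% of all tested genes. The median log2 fold change of the 9 genes was -0.57, beside 0.033 for all tested genes. With the line as a block, which pairs the libraries of a clone, 8 of the 9 genes passed as lower, adding *CCND1* and *CDK6*, where the background was 22.4% of genes lower and 23.2% higher. Without WT4 the count was 7, where 17.4% of all tested genes were lower, or 8 with the block (25.1%), and without the WT1 and WT2 serum libraries it was 5 (3.88%). In bulk RNA, fewer cells in S phase and less RNA of these genes per cell cannot be told apart.

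**Figure D1:**
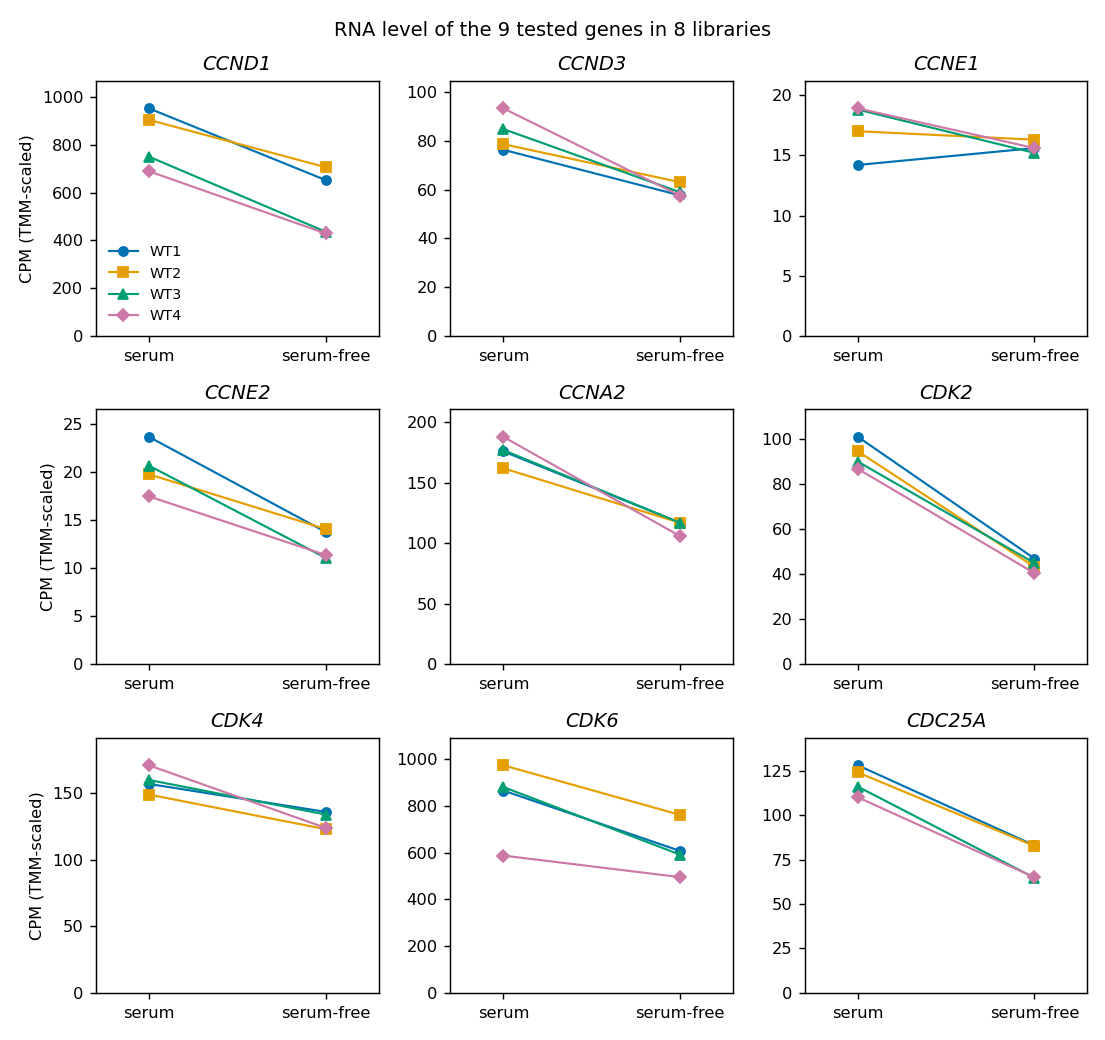
RNA level in CPM (y axis, from 0, a separate scale per gene) with serum and without serum (x axis) for the 9 tested genes, with 1 point per library and a line joining the 2 libraries of each clone, WT1 to WT4. *CDK2* falls in parallel in all 4 clones, *CCND1* and *CDK6* are lower in each clone at levels that differ between clones, and *CCNE1* goes from 14.2 to 15.6 CPM in WT1 and is lower in the other clones.

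*CDK2* (ENSG00000123374, chromosome 12, 55966830 to 55972789), the kinase partner of cyclins E and A, had the largest fold change of the set. It was at 101, 94.6, 90.0 and 86.8 CPM in WT1, WT2, WT3 and WT4 with serum and at 47.0, 43.3, 45.0 and 40.5 CPM without. The groups are far apart, each clone losing about the same proportion. The log2 fold change was -1.08 ± 0.07 (SE), a level 52.9% lower (edgeR, adjusted p = 2.88e-04). Differences within WT1, WT2, WT3 and WT4 were -1.11, -1.12, -1.0 and -1.10, with an SD of 0.06, the smallest among the 9 genes. *CDK2* had the 3rd smallest p-value of the 17671 tested genes, and its fold change ranked 105 from the most negative. With the block, its p-value ranked 19.

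*CDC25A* (ENSG00000164045, chromosome 3, 48157146 to 48188417), the phosphatase that activates CDK2, was at 128, 124, 116 and 110 CPM with serum and at 82.9, 82.6, 64.7 and 65.0 CPM without. The groups did not overlap, and WT1 and WT2 were above WT3 and WT4 in both conditions. It fell by 38.3%, with a log2 fold change of -0.70 ± 0.10 (edgeR, adjusted p = 0.00213).

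*CCNA2* (ENSG00000145386, chromosome 4, 121816444 to 121823883), which pairs with CDK2 in S phase and with CDK1 later, was at 176, 162, 177 and 188 CPM with serum and at 117, 117, 117 and 106 CPM without. Clones hardly differed, and WT4 had both the highest level with serum and the lowest without. The log2 fold change was -0.62 ± 0.07 (edgeR, adjusted p = 9.92e-04), a level 35.1% lower.

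Of the E-type cyclins, which activate CDK2 at the G1/S boundary, *CCNE2* passed the test and *CCNE1* did not. *CCNE2* (ENSG00000175305, chromosome 8, 94880224 to 94896693) was at 23.7, 19.8, 20.7 and 17.5 CPM with serum and at 13.8, 14.1, 11.1 and 11.4 CPM without. All serum-free values were below all serum values. It fell by 38.4%, with a log2 fold change of -0.70 ± 0.12 (edgeR, adjusted p = 0.00428). Without the WT1 and WT2 serum libraries its adjusted p was 0.0544. *CCNE1* (ENSG00000105173, chromosome 19, 29811991 to 29824312) was at 14.2, 17.0, 18.8 and 18.9 CPM with serum and at 15.6, 16.3, 15.2 and 15.6 CPM without. The groups overlapped, since the lowest value of all was WT1 with serum, while the serum-free libraries lay close together. Its log2 fold change of -0.14 ± 0.11 did not pass (edgeR, adjusted p = 0.373, and 0.264 with the block), and differences within clones ran from -0.31 in WT3 to 0.13 in WT1. It passed in 1 alternative, the block together with a correction for GC content, at -0.29 (adjusted p = 0.0119).

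Among the D-type cyclins, *CCND1* (ENSG00000110092, chromosome 11, 69641156 to 69654474) was at 952, 904, 750 and 689 CPM with serum and at 652, 706, 436 and 429 CPM without. The groups overlapped by WT2 without serum, which was above WT4 with serum, yet each clone was lower without serum. The log2 fold change was -0.57 ± 0.19 (edgeR, adjusted p = 0.0559) without the block and -0.59 ± 0.06 with it (adjusted p = 5.06e-06). Without the block it passed when WT4 with serum (adjusted p = 0.0484) or WT2 without serum (0.0273) was left out, and with all libraries by DESeq2 (0.00905), voom (0.0374) and edgeR with GC correction (0.0265). Without the WT1 and WT2 serum libraries its log2 fold change was -0.38 (adjusted p = 0.352). *CCND3* (ENSG00000112576, chromosome 6, 41934933 to 42050035) was at 76.4, 78.7, 84.9 and 93.4 CPM with serum and at 57.7, 63.1, 59.0 and 57.6 CPM without. The order of the clones with serum was the reverse of that for *CCND1*, and without serum they were close together. It fell by 28.8%, with a log2 fold change of -0.49 ± 0.08 (edgeR, adjusted p = 0.00271). *CCND2* (ENSG00000118971, chromosome 12, 4273762 to 4305353) had 2 counts in WT1 with serum and 0 in the other 7 libraries. It was below the filter and not tested, and 3 counts, the limit that a count of 0 allows, correspond to 0.0393 to 0.106 CPM.

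The 2 kinase partners of D-type cyclins had smaller fold changes than *CDK2*. *CDK4* (ENSG00000135446, chromosome 12, 57747727 to 57752310) was at 157, 149, 160 and 171 CPM with serum and at 136, 123, 134 and 124 CPM without. The groups did not overlap, though the gap between 149 and 136 CPM was small. It fell by 18.8%, with a log2 fold change of -0.30 ± 0.07 (edgeR, adjusted p = 0.0111, and 6.17e-04 with the block). Leaving out WT1, WT2 or WT3 gave log2 fold changes of -0.33, -0.31 and -0.33 without the block, at adjusted p-values of 0.0544, 0.0553 and 0.0584, and GC correction gave -0.46 (adjusted p = 5.29e-04). In RefSeq, 54.4% of the span of *CDK4* overlaps *TSPAN31*, and the share of its counts that this affects was not tested. Smaller overlaps, also not tested, include *CCNE2* with *INTS8* (9.25% of its span) and *CCNA2* with *EXOSC9* (7.77%). *CCND3* and *CDK6* overlap long non-coding RNA genes over 22.7% and 10.6% of their spans. *CDK6* (ENSG00000105810, chromosome 7, 92604921 to 92836573) was at 865, 973, 880 and 587 CPM with serum and at 607, 761, 591 and 495 CPM without. WT4 was lowest in both conditions, and its serum level was below that of WT1, WT2 and WT3 without serum. The log2 fold change was -0.43 ± 0.17 (edgeR, adjusted p = 0.100) without the block and -0.42 ± 0.06 with it (adjusted p = 4.32e-05), and every clone was lower without serum. Without the block it passed when WT4 was left out (adjusted p = 0.00986), as it did without WT4 with serum (0.0133) or WT2 without serum (0.0461), and with all libraries by DESeq2 (0.0407). Without the WT1 and WT2 serum libraries its log2 fold change was -0.26 (adjusted p = 0.480).

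**Figure D2:**
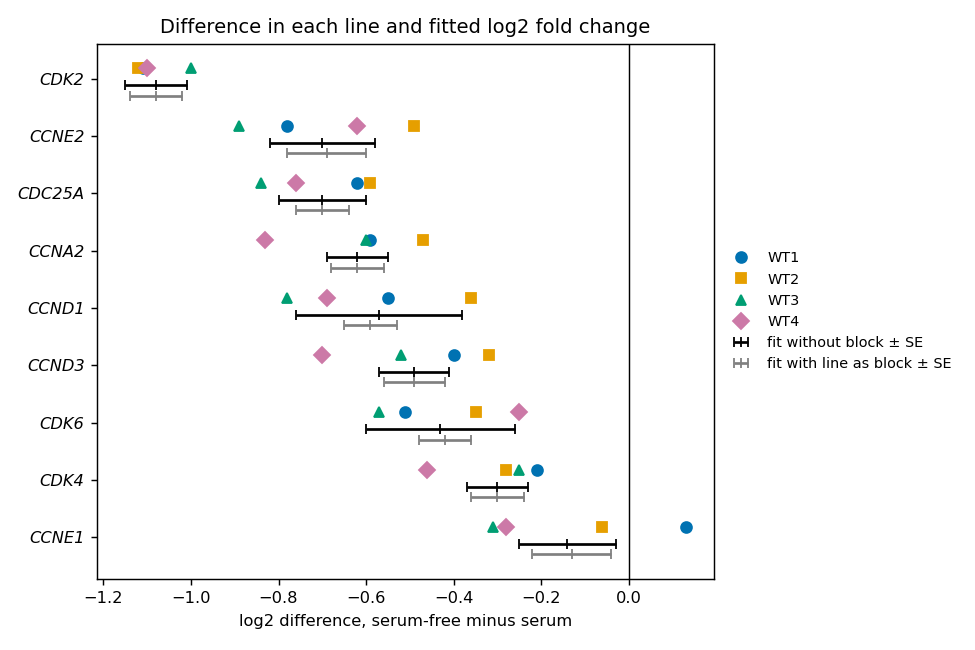
Log2 difference in CPM, serum-free minus serum (x axis), for each of the 9 tested genes (y axis), with 1 coloured symbol per clone and, below them, the fitted log2 fold change with its SE without a block (black) and with the line as block (grey). The 4 symbols of *CDK2* lie between -1.12 and -1.0, *CCNE1* is the gene with a symbol above 0, and for *CCND1* and *CDK6* the SE shrinks from 0.19 and 0.17 to 0.06 with the block.

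The clones themselves differed in 3 of the 9 genes, by edgeR's test of the line terms in a fit that holds the serum condition: *CCND1* (adjusted p = 2.97e-04), *CDK6* (2.49e-04) and *CDC25A* (0.0333). Of all tested genes, 22.9% differed between lines by this test. *CDC25A* lost this call when WT1, WT2 or WT3 was left out, while *CCND1* and *CDK6* kept it without any one line, WT4 included. Averaged over both conditions, WT2 was highest and WT4 lowest for both, by 0.55 on the log2 scale for *CCND1* and 0.67 for *CDK6*. Each clone and condition is 1 library, so a difference between clones cannot be told apart from one between cultures or preparations that both libraries of a clone shared.

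Serum condition and line took different shares of the variation. For *CDK2*, 97.8% of the variation in log2 CPM over the 8 libraries lay between conditions and 2.00% between lines. For *CCNA2* the shares were 95.2% and 0.721%. For *CDK6* the line held more, 54.8% against 41.3% for the condition, and for *CCND1* the shares were 40.9% and 55.1%. *CCNE1* had the largest remainder, 42.9%.

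**Figure D3:**
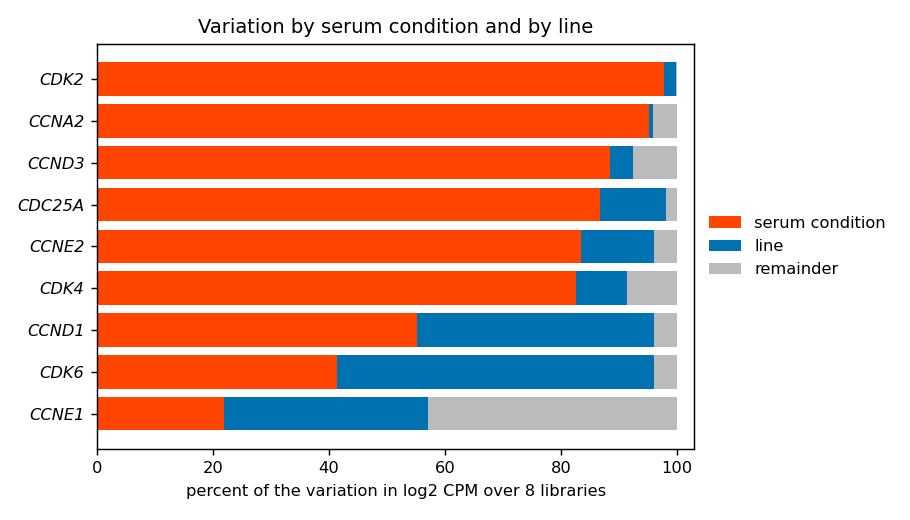
Percent of the variation in log2 CPM over the 8 libraries (x axis) that lies between serum conditions, between lines and in the remainder, stacked for each of the 9 tested genes (y axis). *CDK2* and *CCNA2* vary almost wholly with serum (97.8% and 95.2%), *CDK6* more with line (54.8%), and *CCNE1* least with serum (21.9%).

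Levels of different genes were compared as RPKM, which divides by merged exon length, and the order below *CCND1* depends on that length. The highest was *CCND1*, at 173 ± 26.1 RPKM with serum and 117 ± 30.3 RPKM without (SD, n = 4), ranks 201 and 250 among 17423 genes whose medians were 2.75 and 2.93 RPKM. With serum it was followed by *CDK6* at 67.5 ± 13.6, *CCNA2* at 64.0 ± 3.93 and *CDK4* at 51.5 ± 3.0 RPKM. The range of *CDK6*, 48.0 to 79.5 RPKM, covered those of *CCNA2* and *CDK4*, and in WT4 *CDK4* (55.3 RPKM) was above *CDK6* (48.0 RPKM), so *CDK6* does not differ from either beyond its spread. Lower came *CDC25A* at 28.8 ± 1.89, *CDK2* at 24.0 ± 1.62, *CCND3* at 14.5 ± 1.32, *CCNE1* at 7.0 ± 0.899 and *CCNE2* at 4.65 ± 0.584 RPKM, and the ranges of these neighbours did not overlap on this scale. With the length of the longest transcript, the means with serum were 194 RPKM for *CCND1*, 85.4 for *CDK4*, 70.8 for *CDK6*, 64.0 for *CCNA2*, 35.9 for *CDK2*, 34.8 for *CCND3* and 31.1 for *CDC25A*, with *CCNE1* at 8.82 and *CCNE2* at 6.14 still lowest. Without serum, *CDK6* at 50.1 ± 9.01, *CDK4* at 41.8 ± 2.19 and *CCNA2* at 41.5 ± 2.01 RPKM overlapped. *CDK2* was at 11.3 ± 0.709 RPKM, overlapping *CCND3* at 10.3 ± 0.449 RPKM, whereas with the longest transcript *CDK2* was at 16.9 and *CCND3* at 24.8 RPKM. *CCNE2* was at 2.86 ± 0.355 RPKM.

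**Figure D4:**
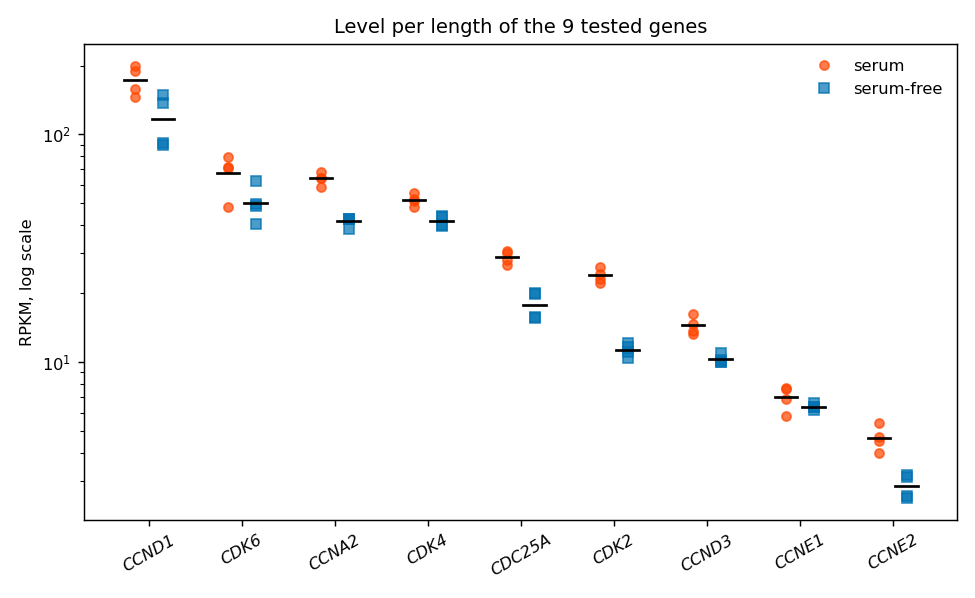
RPKM on a log scale (y axis) of the 9 tested genes, ordered by their mean with serum (x axis), with 1 circle per serum library, 1 square per serum-free library and a bar at the mean of each 4. *CCND1* is highest in both conditions (means 173 and 117 RPKM), and without serum *CDK2* (11.3 RPKM) lies beside *CCND3* (10.3 RPKM), which holds for merged exon length and not for the longest transcript (16.9 and 24.8 RPKM).

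Within families, *CCND1* held 92.1% ± 1.77 of the summed D-type cyclin RPKM with serum and 91.6% ± 1.84 without (SD, n = 4). *CCNE1* held 60.0% ± 6.0 of the E-type RPKM with serum and 69.1% ± 2.22 without. *CDK4* held 43.7% ± 6.85 of the summed *CDK4* and *CDK6* RPKM with serum and 45.7% ± 4.73 without. With the length of the longest transcript in place of merged exons this share was 55% and 57.1%, so which of these kinases is the more abundant depends on the length used.

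The balance between partners was compared as a log2 ratio of counts within each library, which does not depend on library scaling, with a two-sided exact permutation test over the 70 assignments of 8 libraries. The *CCNE1* to *CCNE2* ratio was -0.74, -0.23, -0.14 and 0.11 in WT1 to WT4 with serum and 0.18, 0.21, 0.45 and 0.46 without. All serum-free ratios were above all serum ratios, a difference of 0.57 with an SD over lines of 0.25 (exact permutation p = 0.0286, adjusted p = 0.0571). *CCNA2* to *CDK2* shifted by 0.46 and *CDC25A* to *CDK2* by 0.38, each higher in 4 of 4 lines, with the same p-values (exact permutation p = 0.0286, adjusted p = 0.0571). This raw p is the smallest that the design allows, and the adjusted p covers 6 planned ratios, of which *CCND1* to *CCND2* cannot be read because *CCND2* had no counts in 7 libraries. Over the other 5 ratios, a choice made after the data were seen, the adjusted p of these 3 was 0.0476. The *CDK4* to *CDK6* ratio differed by 0.12 (exact permutation p = 0.600) and *CCND1* to *CCND3* by -0.11 (p = 0.571), both within the spread between lines. The ratios were not corrected for GC content, which is 51.7% for *CCNE1*, 36.9% for *CCNE2*, 52.0% for *CDK4* and 39.7% for *CDK6*. With GC correction and no block, log2 fold changes were -0.29 for *CCNE1*, -0.57 for *CCNE2*, -0.46 for *CDK4* and -0.35 for *CDK6*. The difference between *CCNE1* and *CCNE2* was then smaller, and that between *CDK4* and *CDK6* changed sign. For *CCNA2*, *CDC25A* and *CDK2* the log2 fold changes were -0.61, -0.85 and -1.24.

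The regulators of these kinases were counted from gene lists, as genes that passed the same edgeR test, by which 14.0% of all tested genes were lower and 11.1% higher. Of the CDK inhibitors, 1 of 6 tested genes rose, *CDKN1C* of the CIP/KIP family, with a log2 fold change of 0.74 ± 0.22 (edgeR, adjusted p = 0.0344), and none fell. This call was lost in 10 of 26 alternatives, and the list's median was 0.01. *CDKN2B*, an INK4 gene, had no counts. Among pocket proteins and E2F/DP factors, 8 of 13 fell and 2 rose, with a median of -0.37. *TFDP1*, the main dimer partner of E2F, went down from 466 ± 8.47 CPM (SD, n = 4) by a log2 fold change of -0.69 (adjusted p = 8.28e-04), and *E2F7*, a repressor of the family, by -0.50 (0.00235). The 2 that rose were *TFDP2*, another dimer partner, at 0.47 (adjusted p = 0.00208), and the pocket protein *RBL2* (p130), known from quiescent cells, at 0.40 (0.00301). *RB1*, *RBL1*, *E2F1*, *E2F3*, *E2F4* and *E2F8* were the others that fell.

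Of the CDK activators and modifiers, 6 of 10 fell and none rose, with a median of -0.31. These include the CDK-binding proteins *CKS2* at -0.60 (edgeR, adjusted p = 0.00265) and *CKS1B* at -0.41 (0.0148), *CCNH* of the CDK-activating kinase at -0.35 (0.0121), and *WEE1*, which inhibits CDKs, at -0.29 (0.0127). Parts of the ubiquitin ligases that act on G1/S cyclins and p27 fell in 5 of 11 cases, with none higher and a median of -0.21. The number lower was 3 without WT1 or WT3 with serum, or without WT2 or WT4 in serum-free medium. All tested genes were then lower in 9.29% to 11.3% of cases. It was 1 without WT1 or WT2 in both conditions (5.35% and 6.73%), 2 without WT3 (6.47%) and 6 without WT4 (17.4%). *SKP2*, which recruits p27 for destruction, went from 182 ± 21.1 CPM (SD, n = 4) with serum down by a log2 fold change of -0.86 ± 0.12 (edgeR, adjusted p = 0.00188). *RBX1* at -0.30 (adjusted p = 0.00753), *FBXW7*, which recognises cyclin E, at -0.30 (0.0126) and the scaffold *CUL1* at -0.27 (0.0268) moved less.

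Of the mitotic cyclins and their kinase, 3 of 5 fell, namely *CDK1* at -0.81 ± 0.09 (edgeR, adjusted p = 9.96e-04), *CCNB1* at -0.38 (0.0232) and *CCNB2* at -0.25 (0.0493), with a list median of -0.25. The count was 1, *CDK1*, with GC correction and no block, and 3 with GC correction and the block. It was also 1, *CDK1*, without WT1, WT2 or WT4 in both conditions or in serum-free medium alone, or without WT3 with serum. The calls of *CCNB1* and *CCNB2* were lost in 8 and 16 of the 26 alternatives. Of the cyclins and CDKs that act in transcription, 4 of 11 were lower and 2 higher, with a median of -0.13. Within the Mediator kinase module, *CCNC* (-0.66, adjusted p = 0.00459) and *CDK8* (-0.39, 0.00396) fell while *CDK19*, the paralog of *CDK8*, rose (0.77, adjusted p = 0.00127). Outside that module, the cyclin L gene *CCNL2* rose (0.35, adjusted p = 0.00297). Among other cyclins and CDK-like kinases, 2 of 12 fell and 2 rose, shares near the 14.0% and 11.1% of all tested genes, with a median of -0.09. *CCNG2*, a cyclin linked to cell-cycle arrest, rose by 1.35 ± 0.16 (edgeR, adjusted p = 0.00112) from 11.8 ± 2.43 CPM (SD, n = 4), and *CDK18* by 0.85 (0.00666). *CCNJ* fell by 0.44 (adjusted p = 0.0228) and *CCNY* by 0.22 (0.0375). *CDK3* had too few counts to be tested.

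Over all 7 lists, 28 of 68 tested genes (41.2%) fell and 7 (10.3%) rose, beside 14.0% and 11.1% of all tested genes. None of these 35 genes reversed its direction in the 26 alternatives, and 12 of them passed in each one. With the line as block, 35 (51.5%) were lower and 12 (17.6%) higher, beside 22.4% and 23.2% of all tested genes. The added genes were the inhibitor *CDKN1A* (-0.17, adjusted p = 0.0380), *CCNF* (8.27e-04), *CDK14* (0.00339), *CCNT2* (0.0165), *E2F6* (0.0211), *CCNI* (0.0351) and *CDC37* (0.0467) as lower, and *CDC25C* (0.00320), *FBXO4* (0.0154), *AMBRA1* (0.00338), *CCNA1* (0.0491) and *CDK10* (0.0203) as higher. These were named after their values were seen. Without the WT1 and WT2 serum libraries 11 were lower and 4 higher, where 3.88% and 2.00% of all tested genes were. The lower genes were then 4 of the pocket proteins and E2F/DP factors, 2 each of the activators, the ligase parts and the mitotic genes, and 1 of the transcription list. Without WT4, 28 were lower and 8 higher, beside 17.4% and 14.3% of all tested genes. Without WT1, WT2 or WT3, fewer were lower in each list that had any, where 5.35%, 6.73% and 6.47% of all tested genes were lower. The pocket proteins and E2F/DP factors then had 6, 6 and 7 lower genes, and the CDK activators and modifiers 2, 3 and 2. Leaving out single libraries ended the calls of *CDKN1C*, *E2F1*, *MNAT1*, *PKMYT1*, *SKP1*, *CUL1*, *CCNB1*, *CCNB2*, *CDK12*, *CCNJ* and *CCNY* at least once.

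**Figure D5:**
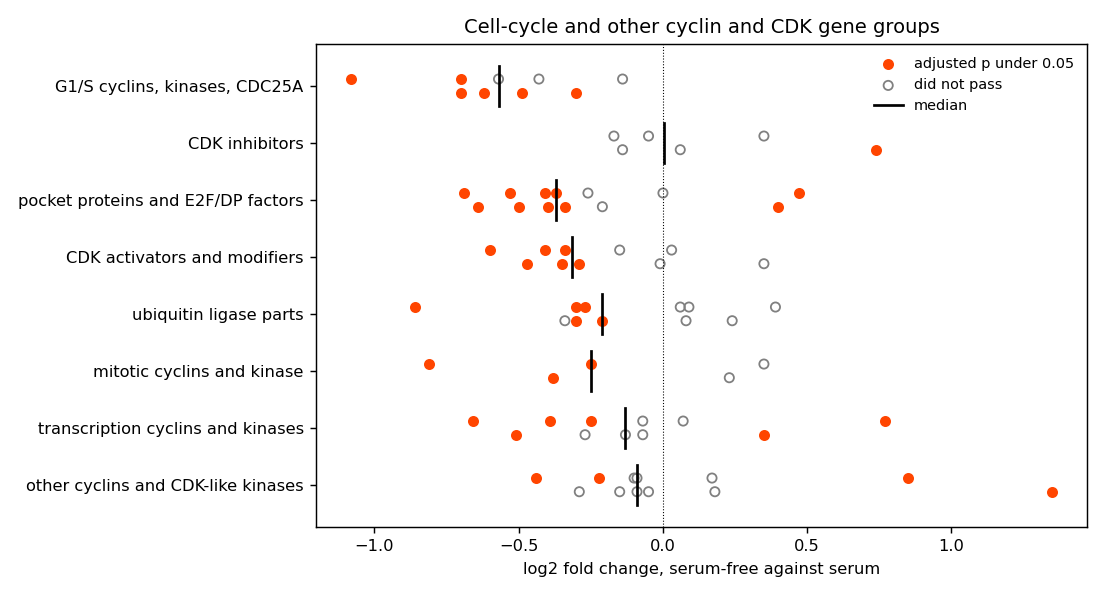
Log2 fold change, serum-free against serum (x axis), of each tested gene in 8 gene groups (y axis), filled where edgeR's adjusted p was under 0.05 and open where it was not, with a black bar at the group's median. The G1/S cyclins and kinases have a median of -0.57, the CDK inhibitors of 0.01, and *CCNG2* lies farthest to the right at 1.35.

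The gene whose log2 CPM followed each tested G1/S gene most closely over the 8 libraries was in no case another member of the set. The closest to *CDK2* was *MYO19* (Pearson r = 0.9996 over 8 libraries), to *CDC25A* the spindle gene *SKA1* (0.9975), to *CDK4* the polymerase subunit gene *POLA2* (0.9966), to *CCNA2* *EMC8* (0.9964) and to *CCNE2* the condensin gene *SMC4* (0.9959). For *CDK6* it was *ZNF91* (0.9919), for *CCND3* *EIF4E2* (0.9906), for *CCND1* *UBE2A* (0.9862) and for *CCNE1* *TAF4* (0.9621). Each is the best of all tested genes over libraries that share conditions and clones, so a high value is a description. Within the set, *CDC25A* and *CCNE2* were closest (0.98), followed by *CCNA2* and *CDK2* (0.97), and *CCNE1* was the member least like *CCND1* (0.17), *CDK6* (0.14) and *CCNE2* (0.26).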

How the data were processed

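RNA was sequenced after depletion of ribosomal RNA. The authors deposited raw read counts for each gene, from HTSeq and the GRCh38 build. For its own expression values, the paper's methods name an earlier genome build. The submitters' processing notes also name cutadapt and TopHat2 2.0.11, and the annotation release and strand setting are not given in the sources used here, so counts of overlapping genes are uncertain. Ensembl identifiers gave a symbol to 55604 of the 58051 genes. Positions and promoters are from RefSeq (GRCh38.p14), whereas exon lengths and GC content are from GENCODE models on GRCh37 (the counts use GRCh38).

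All 8 libraries entered one edgeR fit over the whole table (version 4.0.16, R 4.3.3), with filterByExpr, TMM factors, robust glmQLFit and glmQLFTest, and no block. It compared serum-free with serum, and p-values were adjusted by Benjamini-Hochberg. The line, which is the same clone in both conditions, was an alternative block. Deviations from condition means correlated at 0.40 to 0.60 between the libraries of a line and at most at 0.13 between different lines. Alternatives also included DESeq2 1.42.0, limma 3.58.1 (voom), RLE and upper-quartile scaling, other filters, GC correction and leaving out libraries or lines. Without the block, p-values measure the spread between these clones. With it, they measure how much the serum difference varies from clone to clone. Uncounted reads (ambiguous, 8.23% to 11.5%, and not unique) were left out of library sizes.

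The genes, lists and tests were chosen with earlier results of these data known. From each list, the text gives values for up to 4 genes with the smallest p past the threshold, and for each member the 1 most correlated gene.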

Additional observations from a re-analysis of the deposited data

Results flagged for a closer look

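The level of *CCNA2* in WT4 without serum, 106 CPM, stood apart from the other 3 serum-free libraries, which were all at 117 CPM (Dixon's ratio 0.949 against a critical 0.829 for 4 values). It was 1 of 43 groups of values searched, where 2.15 would pass by chance at 1 in 20.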

How the results depend on the processing

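All 9 tested G1/S genes had a negative log2 fold change in every one of the 26 alternatives, and the number called lower ran from 5 to 9, with none higher. With the share of all genes lower in the same fit in brackets, it was 8 with the line as replicate block (22.4%) and with DESeq2 (16.7%), 7 with voom (14.4%) and with GC correction without the block (21.8%), 9 with both GC correction and block (30.5%), and 5 to 8 when 1 library or line was left out. Genes changed in the whole table numbered 4434, and 8067 with the replicate block, 8281 with block and GC correction, 1589 to 6128 with a library or line left out, 8938 with the block and without WT4, and 1098 without the WT1 and WT2 serum libraries. With all libraries and no GC correction, the block changed the calls of *CCND1* and *CDK6* and of no other G1/S gene. With GC correction it changed those of *CDK6* (adjusted p 0.0800 without and 1.27e-05 with the block) and *CCNE1* (0.0525 and 0.0119), and with WT1, WT2 or WT3 left out also that of *CDK4* (0.00345, 0.00490 and 0.00674 with the block). Of the 4434 calls 44.1% were higher, against 57.6% with upper-quartile scaling, 25.2% with GC correction and 34.9% with GC correction and block, and log2 fold changes followed GC content across 17425 genes (Spearman's rho 0.36). The share of *CCND1* among D-type cyclins was 84.5% with serum and 83.6% without under longest-transcript length, and that of *CDK4* 55% and 57.1%. Pairing the ratios by line leaves their mean difference the same by construction and cannot give an exact p below 0.125. The shifts of 0.57 (*CCNE1* to *CCNE2*), 0.46 (*CCNA2* to *CDK2*) and 0.38 (*CDC25A* to *CDK2*) passed at an adjusted p of 0.0476 over the 5 readable ratios. None of these ratios was corrected for GC content. No alternative was computed for *CCND1* to *CCND2*. Blocked fits without a line, the fit without both serum libraries and the adjustment over 5 ratios were chosen after seeing the data. The causes of these differences were not tested.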
